A study of Danio rerio with 18 samples.

Results

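The sex steroid receptors of the zebrafish liver were read in both sexes of 3 laboratory strains. They comprise the nuclear estrogen receptors encoded by *esr1*, *esr2a* and *esr2b*, the androgen receptor gene *ar*, the nuclear progesterone receptor gene *pgr* and *gper1*, which encodes a membrane estrogen receptor of the G protein-coupled family. Every probe whose transcript accession belongs to 1 of these 6 genes in the RefSeq gene table was taken, whatever its values, which gave 15 of the 43603 probes of the array. Of these, 4 target *esr1*, 2 *esr2a*, 2 *esr2b*, 5 *ar*, 1 *pgr* and 1 *gper1*. All probes of a gene carry the same accession, so they are repeated readings of 1 transcript in the same fish and not independent measurements.

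Baseline hepatic mRNA was measured on one-colour Agilent arrays in 18 adult fish, 1 fish per array, with 3 males and as many females from AB, TU (Tuebingen) and WIK fish. Fish of all 6 groups were untreated, were 12 to 18 months old by the labels (the methods give a lower upper limit) and came from stock centre embryos kept for 2 generations in a single facility. Sex was read from eggs or testes during dissection. By the study's account, AB livers were taken in the morning and those of both other strains in the afternoon, so in every comparison of AB with TU or WIK the strain and the time of collection cannot be told apart. The strains carried no transgene or induced allele that the labels name, and no pooling of fish is stated.

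Estrogen receptors are transcription factors that bind estradiol and then switch on target genes. In egg-laying vertebrates the liver is a main target of ovarian estradiol, where the receptors drive the synthesis of vitellogenins, the yolk precursors that are carried to the ovary in the blood. In fish liver, *esr1* is itself known to be induced by estrogen, while *esr2a* and *esr2b* encode the beta-type receptors, *ar* the receptor for testosterone and 11-ketotestosterone, and *pgr* a receptor for progestins that is best known from the gonads and the brain.

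Values are log2 signals, that is, spot intensity after background correction with an added offset of 50 and quantile normalization over the 18 arrays. Because the offset is in every value, probes without detectable signal lie near 6 on this scale and a difference between dim values is understated. The scanner's software marks each spot that is well above its local background, which held for 44.9% to 67.3% of spots per array. A probe was called different at a Benjamini-Hochberg adjusted p of at most 0.05 over all probes in limma together with a change of at least 2-fold. Fish are the only replicates, and their number, 3 per group, limits the precision.

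The liver label held for all fish at 9 of 9 measured hepatocyte genes, which were well above background on every array. A pair of fish stood apart at the receptors. TU female 3 correlated on average at 0.942 with the males and at 0.912 with the other females over all probes, whereas each of the other females correlated better with its own sex. Its summed signal over 5 erythrocyte genes was 510290, the highest of the 18 fish, against 47435.6 to 149011 in TU males and 31361.1 and 32748.1 in TU females 1 and 2. Its sum over 9 hepatocyte genes was 2047770, among the TU males at 1453800 to 2101740 and above TU females 1 and 2 at 692934 and 908601. Over 10 ovary genes it was 163.833, also among the TU males at 148.279 to 165.531, with the other TU females at 270.027 and 1953.7. Of these genes, 1 was well above background in TU female 3, 1 and 5 in TU females 1 and 2, and 0, 0 and 4 in TU males. The low sums thus rest mostly on genes without detectable signal. The fish was kept as labelled, a female. AB male 3 stood apart at *ar*. The main receptor results that rest on either fish are therefore given with and without it. For the gene lists, the count of calls in TU is given without TU female 3 where it changed. Both fish were singled out by their values, so fits without them are descriptions and not separate tests. In bulk tissue, fewer cells of a type and less RNA per cell cannot be told apart.

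Only *esr1* among the 6 receptor genes separated the sexes at all of its probes in each strain, always with females higher, and its group means spanned 6.36 log2 units at the brightest probe. At its brightest probe, A_15_P100370, the log2 signal was 12.86, 13.51 and 12.85 in AB females 1, 2 and 3, and 6.62, 6.95 and 6.57 in AB males. In WIK females it was 12.33, 11.43 and 12.40, and in WIK males 7.16, 7.05 and 7.03. The sexes did not overlap in either strain. Male signal was low yet well above background in every fish at this probe.

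The difference, male minus female, was -6.36 in AB (standard error 0.22, 95% interval -6.91 to -5.81, an 82.2-fold difference, adjusted p = 0.001) and -4.97 in WIK (standard error 0.27, 95% interval -5.64 to -4.31, 31.4-fold, adjusted p = 0.00261) by limma. The second probe, A_15_P149356, gave -4.54 in AB (adjusted p = 0.00168 in limma) and -4.27 in WIK (adjusted p = 0.00164). The dimmer probes A_15_P658576 and A_15_P132731 changed by -3.44 and -3.16 in AB and by -3.67 and -3.52 in WIK. At A_15_P132731 no AB male was well above background, so the estimate of 8.93-fold (95% interval -3.48 to -2.83) may understate the difference. The call of this probe in WIK was lost without WIK male 1 (limma adjusted p = 0.0502) or WIK male 2 (limma adjusted p = 0.06).

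Summed signals of marker genes moved with the same comparison. Over 9 hepatocyte genes they were 677496 to 914665 in AB females and 1287440 to 2065430 in AB males, and 748778 to 1158950 in WIK females and 1456230 to 2304150 in WIK males. Over 5 erythrocyte genes they were 14231.5 to 29556.1 in AB females and 54428.9 to 87969.1 in AB males, and 24394.9 to 33904.3 and 39648.3 to 75660.5 in WIK. Over 10 ovary genes they were 274.664 to 309.477 in AB females and 172.579 to 228.038 in AB males, and 463.531 to 15124.6 in WIK females and 143.743 to 183.606 in WIK males. Of these genes 0 to 7 were well above background per fish, with 7 in WIK female 1 and 5 in WIK female 2 and in TU female 2. The oocyte markers *gdf9*, *ddx4* and *figla* were not well above background in any fish, while all other genes of this list were in WIK female 1. The sexes thus did not overlap at any of these 3 sums in AB or WIK. Nor did they over 9 exocrine pancreas genes in AB, at 31468.6 to 127790 in females and 11038.2 to 16205.1 in males, though they did in WIK. Over 6 leukocyte genes they did not overlap in WIK, at 6014.84 to 8417.66 in females and 3434.5 to 5461.73 in males, but did in AB. The part of these differences in the receptor results was not tested.

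**Figure D1:**
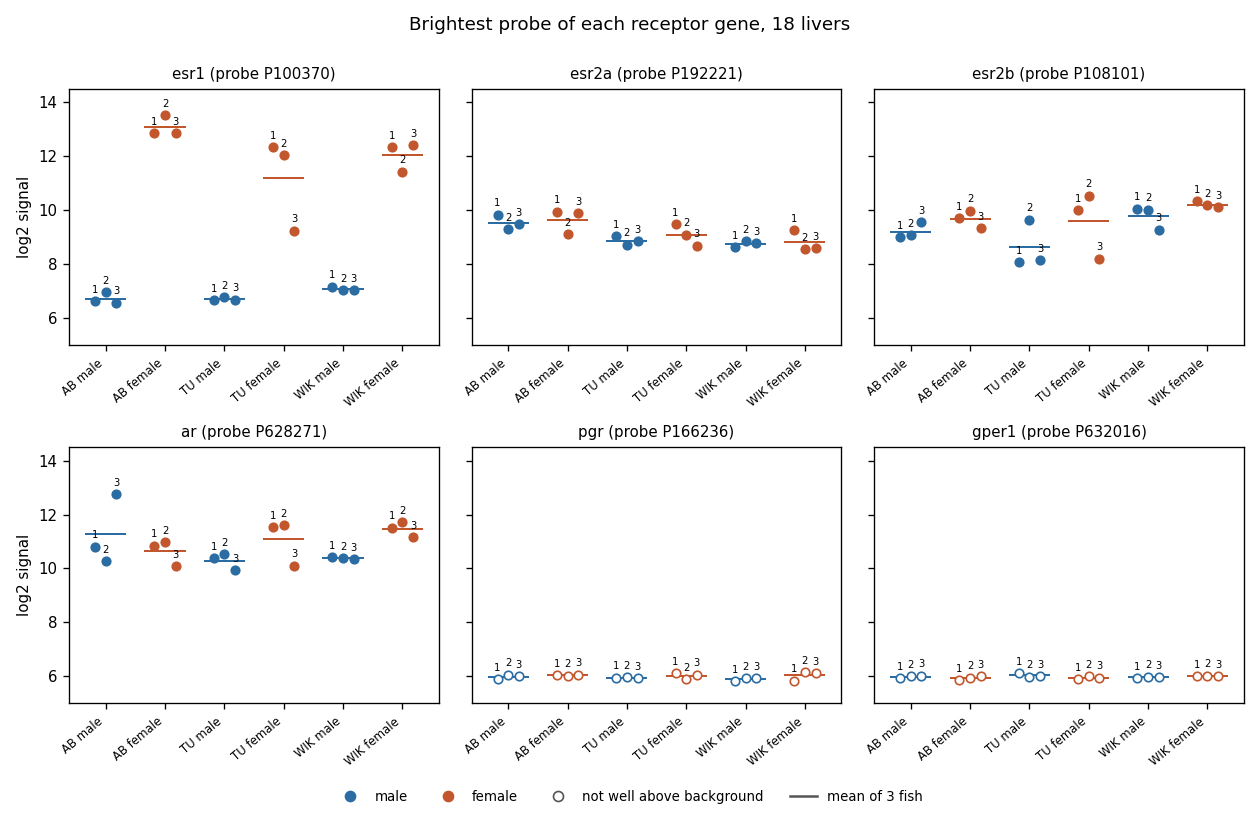
Log2 signal of the brightest probe of each receptor gene (y axis) in the 6 strain and sex groups (x axis), with 1 point per fish numbered by replicate, blue for males and orange for females, open where the spot was not well above background, and a line at the mean of 3 fish. *esr1* separates the sexes in every strain with TU female 3 between them, AB male 3 is the highest fish at *ar*, and every *pgr* and *gper1* point is open.

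Groups without overlap were found at 4 receptor probes in AB, all of *esr1* with females higher (24.3% of all probes did not overlap, 12% with females higher). In TU there were 5 (8.37% of all probes), the 4 of *esr1* with females higher (4.52%) and *esr2a* probe A_15_P113801 with males higher (3.85%). In WIK there were 8, all with females higher (20.6% of all probes in either direction, 8.4% with females higher): the 4 of *esr1*, 2 of *ar*, 1 of *esr2b* and the *gper1* probe, which was never well above background. Between strains of the same sex such shares were not counted. How common the strain separations given below are on this array is therefore not known.

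In AB, 4 of the 15 receptor probes were called, all of *esr1* and all higher in females, against 2.08% of all probes (1.17% higher in females). In WIK, 5 were called against 1.4% (0.788% higher in females, 0.616% in males), the 4 of *esr1* and the brightest of *ar*. The fit of all 18 arrays, which averages the sex difference over the 3 strains, called the 4 *esr1* probes against 2.2% of all probes (1.23% higher in females, 0.975% in males). Its values for *esr1* ran from -5.27 (adjusted p = 8.66e-06 in limma) at A_15_P100370 to -2.82 (adjusted p = 2.8e-05) at A_15_P132731. The median difference over the 15 receptor probes was -0.071 in AB, -0.80 in TU and -0.47 in WIK, beside -0.0015, -0.0095 and 0.012 over all probes. In each strain this median was the value of a single *ar* probe. Most of the 15 probes read *esr1* or *ar*, so the median does not describe the 6 genes alike.

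In TU the females were also higher at every *esr1* probe without overlap, but a single fish decided the test. TU females 1, 2 and 3 had log2 signals of 12.33, 12.03 and 9.24 at A_15_P100370, and TU males 6.67, 6.77 and 6.69. TU female 3 thus lay about midway between the other females and the males. At A_15_P149356 the 3 females were at 10.98, 10.81 and 8.18 and the males at 6.39, 6.88 and 6.48, which is the same picture. At A_15_P658576 and A_15_P132731, where no TU male was well above background, TU female 3 was at 6.96 and 6.61 and was still well above background.

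With 3 fish of each sex, limma called 0 of the 15 receptor probes in TU (0% of all probes), with an adjusted p of 0.935 at A_15_P100370 in spite of a difference of -4.49 (standard error 0.85, 95% interval -6.65 to -2.33). An unadjusted p under 0.05 was found for 4 receptor probes and for 1798 of all probes. Without TU female 3, the differences at *esr1* were -5.47 (standard error 0.11, adjusted p = 0.00701 in limma), -4.31 (adjusted p = 0.0215), -2.83 (adjusted p = 0.0438) and -2.38 (adjusted p = 0.0519). That left 3 receptor probes called, against 0.81% of all probes (0.626% higher in females, 0.184% in males). TU female 3 was the lowest TU female at each *esr1* probe, so leaving it out was bound to widen the difference. A fit that shares its estimate of the spread over all 18 fish called 2 *esr1* probes in TU with TU female 3 included (adjusted p = 0.0257 and 0.0423 in limma).

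**Figure D2:**
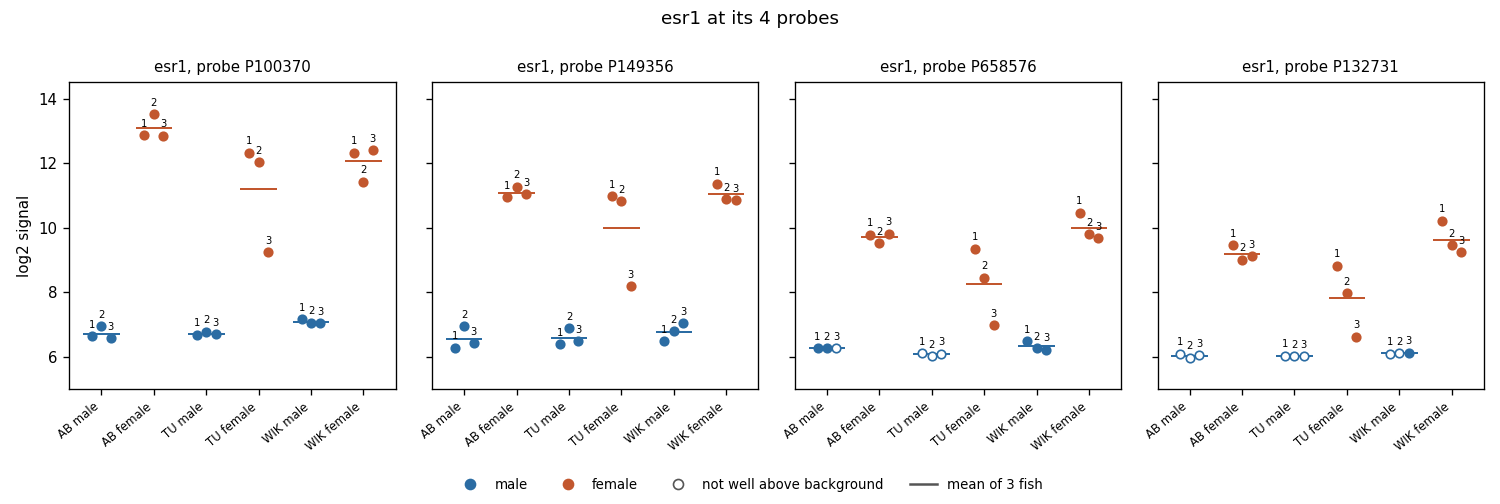
Log2 signal (y axis) of *esr1* at each of its 4 probes in the 6 groups (x axis), drawn as in the plot of the receptor genes. At each probe TU female 3 lies below the other TU females and above all TU males, at 9.24, 8.18, 6.96 and 6.61 from the brightest to the dimmest probe.

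Within each of the 9 pairs of a male and a female of the same strain that shared a slide and a scan, *esr1* was higher in the female at every probe. At A_15_P100370 these pair differences ran from -6.56 to -2.55, and from -6.56 to -4.38 without the pair of TU female 3. Among the group means at this probe, AB females were highest at 13.07 ± 0.38 (SD, n = 3), followed by WIK females at 12.05 ± 0.54 and TU females at 11.20 ± 1.70. AB females lay above all WIK females, while WIK and TU females overlapped. Without TU female 3 the TU female mean was 12.18, so that the order of TU and WIK females turned. Among males, WIK was at 7.08 ± 0.07 and above every AB male (6.71 ± 0.21) and TU male (6.71 ± 0.05), which overlapped each other.

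These strain differences at *esr1* did not pass the F test over the 3 strains at any probe, with adjusted p-values in limma of 0.111 to 0.803 in males and 0.143 to 0.592 in females. AB females exceeded TU females at all 4 probes, by 1.87 at A_15_P100370 and by 1.45 at A_15_P658576. Without TU female 3 these differences were 0.89 and 0.81, and at A_15_P149356 it was 0.19 (adjusted p = 0.133, 0.154 and 0.842 for the F test in limma). The order of AB and WIK females was not the same at each probe, since AB was 1.02 higher at A_15_P100370, and WIK 0.28 and 0.44 higher at A_15_P658576 and A_15_P132731. The sex difference of *esr1* was also set against that of the other strains, with an interaction term over all 18 fish. It differed by -1.87 between AB and TU (standard error 0.82, adjusted p = 0.454 in limma), by -1.39 between AB and WIK (standard error 0.82, adjusted p = 0.638) and by 0.48 between TU and WIK (standard error 0.82, adjusted p = 0.986) at the brightest probe. Without TU female 3 the first was -0.89 (standard error 0.35, adjusted p = 0.292 in limma), the second -1.39 (standard error 0.33, adjusted p = 0.089) and the third turned to -0.50 (standard error 0.35, adjusted p = 0.74). Of all 15 receptor probes, 0 had a called interaction, beside 0.315%, 0.382% and 0.0736% of all probes in the same order. At an unadjusted p under 0.05 the counts were 3, 2 and 3, beside 4437, 4284 and 2867 of the 43487 probes tested. Some of these receptor probes read the same transcript.

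The profile of *esr1* over the 18 fish was compared with those of 11210 other genes, each centred on its own mean and taken at its brightest probe. This is a description, since all profiles come from the same arrays. The 8 closest profiles differed from *esr1* by a root mean square of 0.85 to 1.19 log2 units, against a median of 2.80 over all genes. They belonged to si:dkey-4c23.3, *aff1* (a scaffold of the transcription elongation machinery), *ppm1la* (a protein phosphatase), *aanat1* (an N-acetyltransferase of melatonin synthesis), *rtn1a* (a reticulon of the endoplasmic reticulum), *IYD* (an iodotyrosine deiodinase), *FAM20C* (a kinase of secreted proteins) and *palm2akap2*. TU female 3 lay below the other TU females at all 8, for instance at 10.35 against 15.44 and 15.16 at *rtn1a*, and at 8.72 against 9.72 and 9.52 at *IYD*. The 8 were chosen for closeness to *esr1*, which was itself lower in this fish. Its place at them thus follows from the choice and is no separate evidence about the fish.

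The beta-type receptor *esr2a* was not called between the sexes and had its highest group means in AB fish. At its brighter probe, A_15_P192221, AB males 1, 2 and 3 were at 9.84, 9.30 and 9.48 and AB females at 9.95, 9.12 and 9.88. TU males were at 9.04, 8.72 and 8.84, and TU females at 9.47, 9.10 and 8.69. In WIK the males were at 8.64, 8.84 and 8.78 and the females at 9.27, 8.57 and 8.58. Each AB male lay above each TU and WIK male, whereas among females the strains overlapped.

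The sex difference of *esr2a* over the strains was -0.13 (95% interval -0.44 to 0.19, adjusted p = 0.672 in limma), an interval that does not reach 2-fold. Among males the F test over the strains gave an adjusted p of 0.0395 at A_15_P192221, with AB 0.67 above TU and 0.78 above WIK, and 0.0131 at A_15_P113801, with AB 0.72 above TU and 0.74 above WIK. Neither reached 2-fold, so neither was called. In females the adjusted p was 0.292 at the first probe and 0.0477 at the second. There AB females were an estimated 1.48-fold above TU females and 1.38-fold above WIK females. No TU or WIK female was well above background at this probe, so these estimates may be understated. Without TU female 3 the adjusted p in females at this probe was 0.0596. Over the alternative settings and left-out fish, the F test's adjusted p in limma ran from 0.0215 to 0.526 in males at A_15_P192221. At A_15_P113801 it ran from 0.00919 to 0.0497 in males and from 0.0189 to 0.23 in females. A_15_P113801 is a dim probe, and with a smaller offset of 16 its largest difference in males was 1.22 (adjusted p = 0.00919 in limma), with plain background subtraction 2.52 and on the scanner's processed signal 2.90. In both sexes the AB fish was the higher in all 3 comparisons with the TU fish of the same number, scanned on the same day, at 0.44 to 0.90 for this probe. Signal summed over 9 exocrine pancreas genes was 11038.2 to 16205.1 in AB males, 82474.3 to 1445550 in TU males and 266815 to 1699380 in WIK males, and 31468.6 to 127790, 163709 to 712193 and 65396.9 to 452968 in the females. Its part in the strain differences of the receptors was not tested. The time of collection also set AB apart, as given at the start.

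The other beta-type receptor, *esr2b*, was called among strains at 1 of its 2 probes, in males only. At A_15_P132441 the males were at 7.88, 7.66 and 8.96 in AB, at 6.66, 7.55 and 6.66 in TU and at 9.93, 9.82 and 9.47 in WIK, all well above background. Females were at 8.64, 8.94 and 8.28 in AB, at 7.91, 8.19 and 7.19 in TU and at 9.29, 8.93 and 9.82 in WIK. In both sexes TU was lowest and WIK highest, and no TU fish overlapped an AB or WIK fish of its sex. The share of all probes that separate the strains in this way was not counted. TU males were 2.78 below WIK males (standard error 0.38, F test adjusted p = 0.0171 in limma), 1 of 15 receptor probes called in males against 3.67% of all probes. A single call in 15 is close to that share, so the count does not set the receptors apart from the array. TU females were 1.58 below WIK females (standard error 0.32, F test adjusted p = 0.0559 in limma). Signal summed over 5 intestine genes was 371530, 160.701 and 154597 in TU males 1, 2 and 3, and 230.381 to 441.714 in WIK males. AB males were at 208.716 to 12872.6. In females the sums overlapped, at 564.763 to 14220.6 in TU and 165.606 to 23616.1 in WIK. The part of this sum in the *esr2b* differences was not tested.

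This call at *esr2b* had limits. It was lost without TU male 1 (adjusted p = 0.053 in limma), WIK male 1 (0.0708) or WIK male 2 (0.0725), with the replicate number as a block (0.0569), with median scaling (0.0668) and with the scan day as a block (0.114), while TU minus WIK was -3.27 and -2.27 in the same-number pairs scanned on 1 day and -2.80 in the pair scanned on different days. At the brighter probe of the same transcript, A_15_P108101, the males were at 8.99, 9.08 and 9.55 in AB, at 8.07, 9.64 and 8.14 in TU and at 10.05, 10.02 and 9.27 in WIK. There TU and WIK males overlapped and differed by 1.16 in the same direction (standard error 0.44, adjusted p = 0.296 in limma). The males and females did not differ in any strain at either probe by the call rule. Over the strains, the sex difference was -0.62 at A_15_P108101 (95% interval -1.26 to 0.02, adjusted p = 0.256 in limma) and -0.29 at A_15_P132441 (95% interval -0.75 to 0.17, adjusted p = 0.49), both with females higher, although with each array scaled to its median the values were 0.11 and 0.26.

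**Figure D3:**
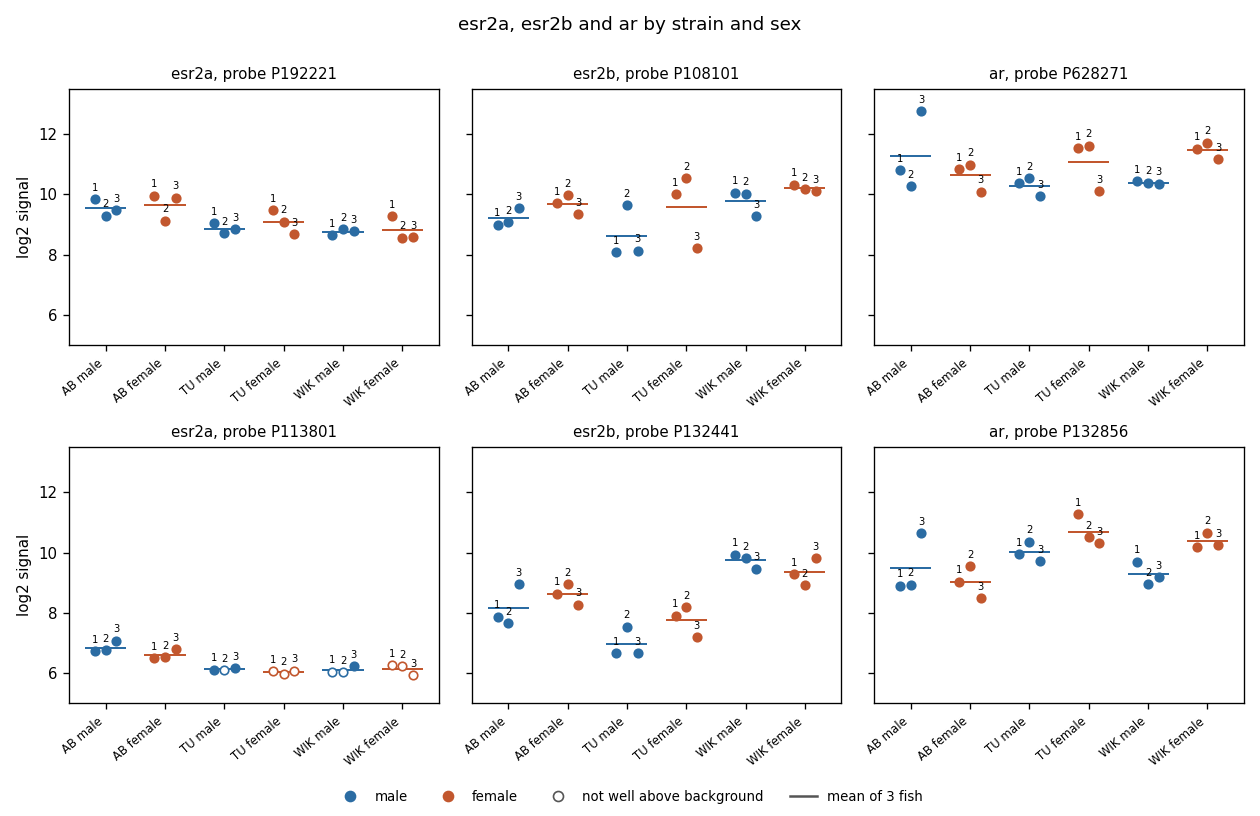
Log2 signal (y axis) of both probes of *esr2a* and *esr2b* and of *ar* probes A_15_P628271 and A_15_P132856 in the 6 groups (x axis), drawn as in the plot of the receptor genes. AB lies highest at *esr2a*, WIK highest and TU lowest at *esr2b* probe A_15_P132441, and AB females lowest at *ar* probe A_15_P132856 with a mean of 9.02.

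The androgen receptor gene *ar* was well above background on every array at 4 of its 5 probes and on 17 at the fifth. At the brightest, A_15_P628271, WIK females were at 11.51, 11.71 and 11.17 and WIK males at 10.43, 10.38 and 10.35, without overlap. TU females were at 11.53, 11.61 and 10.11 and TU males at 10.38, 10.54 and 9.94. AB females were at 10.84, 10.98 and 10.09 and AB males at 10.81, 10.26 and 12.76. TU female 3 thus lay among the TU males, and AB male 3 lay above every other fish of the series.

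In WIK the difference at this probe was -1.08, male minus female (standard error 0.15, 95% interval -1.44 to -0.72, 2.11-fold, adjusted p = 0.0295 in limma), the call of *ar* counted above. It was not a firm call: it was lost with the replicate number as a block (adjusted p = 0.0657 in limma), without WIK male 1 (0.125), WIK male 2 (0.151), WIK male 3 (0.0572), WIK female 1 (0.0817) or WIK female 2 (0.0627), and the difference was 0.019 under scaling of the arrays to a common median. Within the slides the WIK pairs differed by -1.08, -1.33 and -0.82. The other *ar* probes changed by -1.09 to -0.44 in WIK, none called. The marker sums of the WIK fish given for *esr1* apply here too.

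In the other strains the *ar* difference depended on the fish that stood apart. In AB it was 0.64 at A_15_P628271 (standard error 0.69, adjusted p = 0.724 in limma) and -0.10 without AB male 3 (adjusted p = 0.94). In TU it was -0.80 (standard error 0.45, adjusted p = 0.935), and -1.28 without TU female 3 (standard error 0.20, adjusted p = 0.0854 in limma). Over the 3 strains it was -0.41 (adjusted p = 0.49), and -0.82 (adjusted p = 0.00332 in limma) without both fish, which is under the 2-fold limit, in an alternative chosen after the data were seen. With each array scaled to its median, the value over the strains with all fish was 0.29. AB male 3 was also the highest AB fish at A_15_P755186 and A_15_P132856, at 11.10 and 10.65, but not at A_15_P131051, where it was at 6.54 and AB female 1 at 6.61, or at A_15_P655071, where they were at 6.78 and 7.05.

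Among strains, *ar* was called in females at A_15_P132856 only, the single receptor probe called there against 4.73% of all probes. This count too is close to the share over the array. AB females were at 9.04, 9.54 and 8.49, TU females at 11.27, 10.51 and 10.31, and WIK females at 10.19, 10.66 and 10.25, so that AB lay below the others without overlap. AB was 1.67 below TU and 1.35 below WIK (standard error 0.33 each, F test adjusted p = 0.0403 in limma). All pairs of an AB and a TU female scanned on the same day had this direction, at -2.23, -0.96 and -1.82. AB differed from the others in the time of collection as well. The call was lost with the scan day as a block (adjusted p = 0.0672 in limma), with plain background subtraction (0.0846), with the scanner's processed signal (0.109) and with median scaling (0.288), and leaving out any of the 9 females other than TU female 3 took it to between 0.0549 and 0.13. At the other *ar* probes AB females were 0.44 to 0.90 below TU females, with adjusted p-values of 0.416 to 0.764 in limma. Without TU female 3 they were 0.57 to 1.43 below (adjusted p = 0.0774 to 0.731 in limma).

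**Figure D4:**
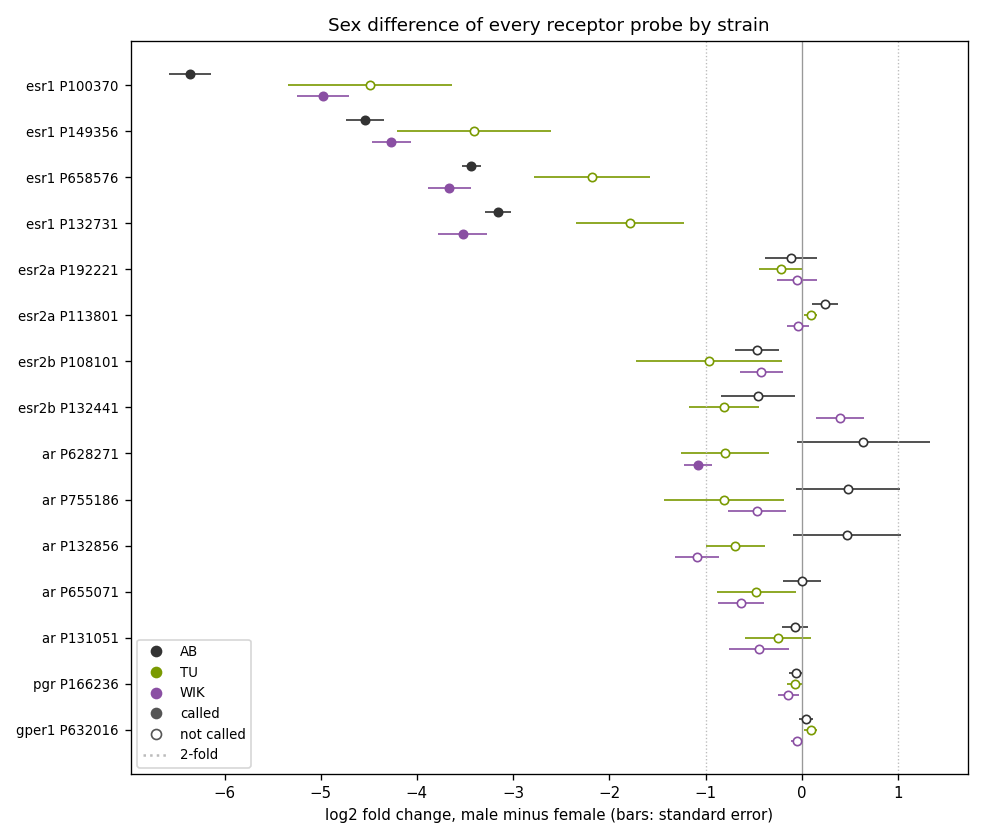
Log2 fold change, male minus female (x axis), of each of the 15 receptor probes (y axis) in AB, TU and WIK, with bars for the standard error, filled points where the probe was called and dotted lines at 2-fold. The 4 *esr1* probes lie far to the female side, *ar* is called at a single probe in WIK, and the TU points carry the widest bars at *esr1*.

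The progestin receptor *pgr* and the membrane estrogen receptor *gper1* were not well above background in any of the 18 fish. Each is read by 1 probe, with log2 signals of 5.83 to 6.17 for *pgr* and 5.85 to 6.13 for *gper1*. Values this close to the offset set no order among groups, and a level below the reach of these probes was not detectable here. The sex differences over the strains were -0.091 (95% interval -0.19 to 0.012) and 0.029 (95% interval -0.044 to 0.10), and neither was called in any comparison in these fits. On the scanner's processed signal *pgr* was called over the strains at -1.16 (adjusted p = 0.00941 in limma), at a probe below detection in every fish.

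Genes known to respond to estrogen in liver were compared next, each at its brightest probe. All 7 vitellogenins were called higher in females in AB and in WIK, with a median difference of -9.94 and -9.77. Of all probes, 1.17% in AB and 0.788% in WIK were called higher in females. In TU limma called 0 of 7 with a median of -6.42 (4 of 7 at an unadjusted p under 0.05), and 1 of 7 with a median of -8.53 without TU female 3. In that fish *vtg1*, *vtg2* and *vtg3* were at 7.41, 6.86 and 6.15, within the range of the TU males. Its *vtg4*, *vtg5*, *vtg6* and *vtg7* were at 11.55, 12.11, 12.47 and 13.85, above every TU male and below TU females 1 and 2. The vitellogenins are close paralogs, so the values of single members are uncertain. Of 3 measured genes on a list of other estrogen-induced genes, *nots* (nothepsin, a protease of female liver) was called in AB at -8.92 (adjusted p = 0.00232 in limma) and in WIK at -8.97 (adjusted p = 0.0144). *ctsd* and *cyp19a1b* were called in neither strain. At an unadjusted p under 0.05 in limma there were 3 of 3 genes in AB, 1 in TU and 2 in WIK, beside 7654, 1798 and 6514 of all probes. In TU, 0 were called with all fish. Without TU female 3, 1 was called higher in females and 1 higher in males, against 0.626% and 0.184% of all probes.

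TU female 3 did not hold the same place between the sexes at every gene. At *nots* it was at 6.85, with TU males at 6.27, 8.26 and 6.36 and TU females 1 and 2 at 15.10 and 15.18. At *hsd17b3*, which encodes an enzyme that makes testosterone, it was at 11.14, above TU males at 9.83, 10.65 and 9.52, while TU females 1 and 2 were not well above background. It thus lay within or above the TU males at *nots*, *hsd17b3*, *vtg1*, *vtg2* and *vtg3*, and between the sexes at *esr1*, *vtg4*, *vtg5*, *vtg6* and *vtg7*.

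Of 15 measured genes listed for ligand supply, 1 was called between the sexes in AB and 2 in WIK, against 2.08% and 1.4% of all probes. No steroid was measured. At an unadjusted p under 0.05 in limma there were 6 of 15 in AB, 0 in TU and 5 in WIK, beside 7654, 1798 and 6514 of all probes. Of 15 measured genes for steroid synthesis, conversion and transport, *hsd17b3* was called higher in males in AB (5.53, adjusted p = 0.00195 in limma) and WIK (5.06, adjusted p = 0.000782), and *hsd11b2*, an enzyme that inactivates cortisol and serves 11-ketotestosterone synthesis, in WIK (3.53, adjusted p = 0.0104). The *hsd11b2* difference was 2.36 in AB (adjusted p = 0.274) and -0.034 in TU (adjusted p = 0.995 in limma). In TU, 0 of the 15 genes were called with all fish, and 2, both higher in males, without TU female 3 (0.184% of all probes higher in males). AB male 3, the fish high at *ar*, was at 12.10 for *hsd11b2* and the other AB males at 9.30 and 8.53. Aromatase *cyp19a1a*, which makes estradiol in the ovary, stayed below this detection limit in every fish. Sex hormone-binding globulin *shbg* was 0.95 higher in AB males and 0.78 higher in WIK males, with adjusted p-values of 0.0494 and 0.0301 in limma, but under 2-fold.

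Among 7 measured membrane progestin receptors, a family separate from *pgr*, *paqr7a* was called higher in AB females (-1.77, adjusted p = 0.00271 in limma) and *pgrmc1*, a heme-binding membrane protein, higher in AB males (1.17, adjusted p = 0.0411). Of all probes in AB, 1.17% were called higher in females and 0.902% in males. In WIK *paqr7a* and *pgrmc1* differed by -1.07 (adjusted p = 0.135) and 0.99 (adjusted p = 0.0536 in limma). Of 13 receptor chaperones, *fkbp5*, a co-chaperone of steroid receptors, was called in WIK alone, higher in males (1.27, adjusted p = 0.0463 in limma), against 0.616% of all probes. Its AB value was -1.46 (adjusted p = 0.375), and the sex differences of AB and WIK differed by -2.73 (standard error 1.25, adjusted p = 0.496 for the interaction in limma). Of 5 measured related nuclear receptors, the glucocorticoid receptor *nr3c1* among them, limma called 0 in AB, TU and WIK, with 1, 0 and 0 at an unadjusted p under 0.05.

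With all fish, 1 of 14 measured coregulators was called, in AB and in WIK, against 2.08% and 1.4% of all probes. The only probe that the gene table assigns to *crebbpa*, a paralog of the acetyltransferase CREB-binding protein, was -7.37 in AB (adjusted p = 0.013 in limma) and -8.52 in WIK (adjusted p = 0.00512), with group means of 14.56 and 15.42 in AB and WIK females. With no other probe of the gene to check that assignment, whether the signal is that of *crebbpa* was not tested. In TU it was -4.24 (adjusted p = 0.935 in limma), with TU female 3 at 6.37 and TU females 1 and 2 at 13.11 and 13.56. In TU without TU female 3, 1 of the 14 coregulators was called, higher in females, against 0.81% of all probes. The medians of the chaperone, coregulator and steroid supply lists lay between -0.063 and 0.11 in all 3 strains.

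**Figure D5:**
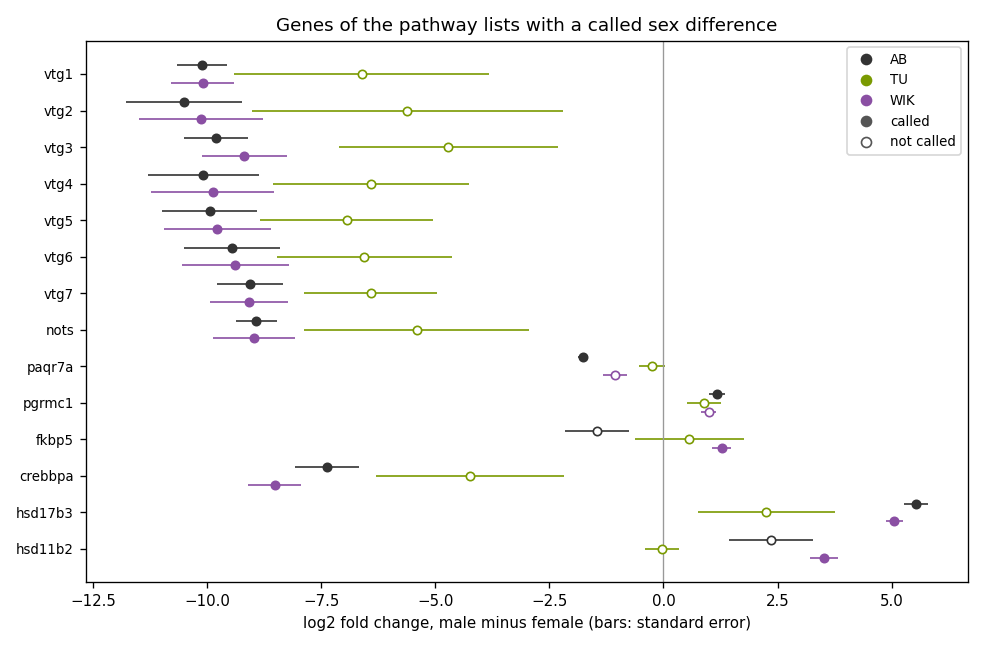
Log2 fold change, male minus female (x axis), of the 14 genes on the pathway lists that were called in AB or WIK (y axis), with bars for the standard error and filled points where the gene was called. The vitellogenins, *nots* and *crebbpa* lie on the female side and *hsd17b3* on the male side, and no TU point is filled.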

How the data were processed

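The authors deposited, for each array, the Feature Extraction output with the linear intensity of every spot and of its background, not normalized between arrays, and a table of their background-corrected, normalized log2 values with 1 value per accession. The latter served as an alternative only. Spot and background median intensities were corrected with normexp (offset 50) in limma 3.58.1 (R 4.3.3), quantile-normalized and then log2-transformed. Outlier-flagged spots and 1417 control spots were left out, and spots of a probe were averaged. Probes were named by accession through the RefSeq gene table, which named 26043 of 43603 probes.

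Sexes were fitted within strains, strains within sexes by an F test, and interactions and the mean sex difference in all 18 arrays. p-values were Benjamini-Hochberg adjusted. A list gene was read at its brightest probe. All receptor probes are named, then up to 6 called genes per list and the 8 profiles closest to *esr1*. The receptors and lists were chosen with earlier results of these data known. Fits were tested on simulated data. Fish numbered 1 or 2 shared a scan day with those of the same number in all strains, those numbered 3 in AB and TU only, and a same-numbered male and female of a strain shared a slide. In WIK their deviations correlated at 0.118 to 0.199 in all 3 pairs, so the block is given there. The sources used here do not give the tank or family of a fish, so p-values measure the spread between these fish. Plots used matplotlib 3.10.9 (Python 3.11.15).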

Additional observations from a re-analysis of the deposited data

Results flagged for a closer look

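The strain difference of *esr1* between AB and WIK ran in opposite directions in the sexes at A_15_P100370. Every AB male lay below every WIK male and every AB female above every WIK female, and the difference between the sexes was -1.39 (95% interval -3.15 to 0.37, adjusted p = 0.638 for the interaction in limma), so it did not pass the test. At the second probe, A_15_P149356, the AB mean also lay below WIK in males (-0.22) and above it in females (0.054), but the fish overlapped. There the same difference was -0.27 (adjusted p = 0.95 in limma). The pattern was not shared by the dimmer probes A_15_P658576 and A_15_P132731, where the AB mean lay below that of WIK in both sexes. At these the difference was 0.23 and 0.37 (adjusted p = 0.946 and 0.902 in limma). No AB male was well above background at A_15_P132731, so its male order is uncertain.

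At *gper1* the male was higher in all 3 same-slide pairs of AB and lower in all 3 of WIK, and the sex differences of these strains differed by 0.099 (adjusted p = 0.776 for the interaction in limma), at a probe that was not well above background in any fish.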

How the results depend on the processing

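The counts of receptor probes called between the sexes stayed within 1.5 times under 9 of 10 alternatives in AB, TU and WIK and under 10 of 11 over the 3 strains. The exception in AB, in WIK and over the strains was the authors' table, with 1 called in each, which holds 1 value per accession and so 6 receptor values. In TU it was the fit of all 18 arrays, with 2. Leaving out 1 fish gave 4 to 4 in AB, 0 to 3 in TU (3 without TU female 3), 3 to 5 in WIK (3 without WIK male 1 or WIK male 2) and 4 to 4 over the strains. The strain calls were less stable. In males (1 called) the count was 2 with plain subtraction, 2 with offset 16, 3 with the scanner's processed signal, 3 with no fold limit, and 0 with median scaling, the authors' table, the replicate block or the scan day as a block, and it was 0 to 2 without 1 fish (0 without TU male 1, WIK male 1 or WIK male 2, 2 without TU male 2). In females (1 called) it was 2 with offset 16, with a filter on dim probes or with no fold limit, and 0 with plain subtraction, median scaling, the authors' table, a 4-fold limit or the scan day as a block, and it was 0 to 1 without 1 fish (1 without TU female 3). With the processed signal it was again 1, but *esr2a* in place of *ar*. Over the strains that signal called *pgr* beside *esr1*. Interaction counts were 0 under all 11 alternatives. The cause of these shifts was not tested. With median scaling the *ar* difference in WIK turned to 0.019 (adjusted p = 0.969 in limma), and over its alternatives the adjusted p ran from 0.0197 to 0.969. Over all results, 1086 alternatives kept the side of the threshold, 34 lost the call, 10 gained one and 1 turned direction with a call involved. These totals also count other probes of a gene, read in place of its brightest. The 1086 include uncalled results whose sign changed, such as *esr2a* probe A_15_P192221 in AB, where 5 of 14 alternatives changed sign. Under the scanner's processed signal the median of all probes, male minus female, was -0.092 in AB, -0.37 in TU and -0.30 in WIK. With the replicate block, pairing fish by number, the calls that changed were *ar* in WIK (adjusted p = 0.0657 in limma) and *esr2b* in males (0.0569). The correlations of same-numbered fish were 0.25, 0.012 and -0.067 in AB and 0.090, -0.024 and 0.37 in TU. Signal near background limits *pgr*, *gper1* and the dim probes of *esr1* and *esr2a*.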
